A study of Mus musculus with 10 samples.

Results

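Broad H3K4me3 domains are long stretches of chromatin in which the nucleosomes carry trimethylated lysine 4 of histone H3. Here a broad domain was a run of at least 5 directly adjacent 5 kb windows on chromosomes 1 to 19, each with a mean of at least 3 normalized RPKM over the 3 *Setd1b* WT libraries (replicates 1, 2 and 4). Normalized RPKM is the read density of a window after the authors' enrichment normalization, which sets the 40th percentile of each library to 1.23 and its 99th percentile to 6.77. The rule found 6226 domains, made of 47633 of the 492344 autosomal windows (9.67%) and covering 238.2 Mb. They held 41.8% of the autosomal windows at or above 3 in WT. The WT values chose the domains, so the height of the domains in WT and the difference between cKO and WT inside them are descriptions and carry no test.

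H3K4me3 is a mark of active and poised promoters, where it usually forms a narrow peak over a CpG island. Fully grown mouse oocytes are known for a different pattern, in which the mark also spreads over long intergenic and gene body regions that lack DNA methylation. H3K4me3 is written by SET domain enzymes of the COMPASS family. SETD1A and SETD1B work with CXXC1, a subunit that binds unmethylated CpG dinucleotides, and MLL2 (KMT2B) is the enzyme known for most of the transcription-independent mark in oocytes.

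The libraries came from ULI-nChIP-seq, a native ChIP method for few cells, on pools of about 200 germinal vesicle (GV) oocytes of 21-day-old C57BL6 females. The cKO oocytes were *Setd1b* floxed/floxed and Gdf9-Cre positive, and the WT oocytes were *Setd1b* floxed/floxed and Gdf9-Cre negative by their labels, so both genotypes carried floxed alleles. *Gdf9*-Cre acts in oocytes from early in follicle growth, and the deletion is thus limited to the growing oocyte and spares the somatic cells around it. cKO replicates 1, 3 and 4 and WT replicates 1, 2 and 4 were compared, with inputs of replicates 1 and 4 of each genotype. In a pool, a weaker mark in every oocyte and a mark absent from part of the oocytes cannot be told apart.

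Every value was a whole number of reads above a library's value at 0 reads. The libraries held 10856015 to 32775874 reads in windows, and a domain held a median of 266.5 reads in the library with the fewest and 1007.5 reads in that with the most. Counting error alone gave the mean of a median domain an SD of 0.142 (WT replicate 4) to 0.318 normalized RPKM (cKO replicate 3), if each read is taken as independent. The value at 0 reads was 0.785 in cKO replicate 1 and 0.810 in WT replicate 1, against -1.02 and -0.70 in cKO replicates 3 and 4 and -0.036 and 0.2996 in WT replicates 2 and 4. Background therefore differed between libraries within each genotype. The values of cKO replicates 3 and 4 also lay below those of every WT library, so background and genotype cannot be fully told apart. The window with the *Setd1b* start site, which is not in a domain, had 4.50, 4.66 and 3.93 normalized RPKM in the cKO libraries and 7.56, 7.65 and 6.11 in the WT libraries. It does not show the deleted exons and so does not check the genotype.

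The sequences below are the 300 bases with the most CpG dinucleotides in 6 domains, outside annotated exons and masked repeats, on the plus strand of GRCm38, with CpG in capitals. They are shown because the domains that were lower and higher in cKO differed in CpG content. The longest domain holds the start site of *Map4k4* and the highest that of *Sart1*. The largest decrease lies inside *Cpne4*, the next covers no protein-coding gene, the largest increase covers no protein-coding gene, and the next covers *Hlx*.
longest domain, chr1:39900488-39900787: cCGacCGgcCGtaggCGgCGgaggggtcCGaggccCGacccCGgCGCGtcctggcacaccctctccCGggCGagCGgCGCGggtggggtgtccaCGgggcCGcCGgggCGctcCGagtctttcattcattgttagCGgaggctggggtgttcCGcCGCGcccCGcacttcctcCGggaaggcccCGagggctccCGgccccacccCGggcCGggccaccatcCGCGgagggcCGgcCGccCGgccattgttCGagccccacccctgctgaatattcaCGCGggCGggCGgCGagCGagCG
highest domain, chr19:5389709-5390008: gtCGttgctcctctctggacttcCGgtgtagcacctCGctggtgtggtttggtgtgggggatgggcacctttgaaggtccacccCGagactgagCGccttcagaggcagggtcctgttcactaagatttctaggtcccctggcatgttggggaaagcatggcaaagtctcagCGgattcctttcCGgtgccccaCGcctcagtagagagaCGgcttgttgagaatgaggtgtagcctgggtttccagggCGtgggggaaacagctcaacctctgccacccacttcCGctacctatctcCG
largest decrease, chr9:104780536-104780835: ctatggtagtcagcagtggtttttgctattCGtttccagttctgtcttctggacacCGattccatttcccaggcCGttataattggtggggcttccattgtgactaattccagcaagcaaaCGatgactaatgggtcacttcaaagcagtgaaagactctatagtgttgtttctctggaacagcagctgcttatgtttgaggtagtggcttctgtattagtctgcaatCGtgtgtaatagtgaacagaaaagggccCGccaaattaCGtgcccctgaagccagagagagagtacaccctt
second decrease, chr6:66120553-66120852: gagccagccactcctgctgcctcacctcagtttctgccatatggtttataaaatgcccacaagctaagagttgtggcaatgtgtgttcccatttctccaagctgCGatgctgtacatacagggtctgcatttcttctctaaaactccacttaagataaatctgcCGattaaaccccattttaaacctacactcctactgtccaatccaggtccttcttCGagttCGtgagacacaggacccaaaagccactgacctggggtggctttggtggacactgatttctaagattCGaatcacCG
largest increase, chr8:35697202-35697501: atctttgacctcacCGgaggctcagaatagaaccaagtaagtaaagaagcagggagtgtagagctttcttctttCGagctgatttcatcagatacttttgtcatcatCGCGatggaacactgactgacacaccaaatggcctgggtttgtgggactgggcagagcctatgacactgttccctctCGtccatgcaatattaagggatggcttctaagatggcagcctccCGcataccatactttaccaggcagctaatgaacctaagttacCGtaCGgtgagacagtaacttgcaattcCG
second increase, chr1:184732631-184732930: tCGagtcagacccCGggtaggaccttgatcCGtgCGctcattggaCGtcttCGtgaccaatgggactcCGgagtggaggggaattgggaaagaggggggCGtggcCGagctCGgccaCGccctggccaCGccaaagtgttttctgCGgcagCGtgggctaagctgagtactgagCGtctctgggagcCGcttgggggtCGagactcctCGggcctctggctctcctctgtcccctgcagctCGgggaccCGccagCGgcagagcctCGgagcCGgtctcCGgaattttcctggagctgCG
These stretches held 43 CpG in the longest and 12 CpG in the highest domain. The stretches held 7 and 6 CpG in the decreases. The increases held 9 CpG in the domain without a gene and 25 CpG beside *Hlx*.

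The domains were short on the scale of what they are named for, with a few very long ones. Their width was 35 kb at the median, with quartiles of 25 and 45 kb and a longest domain of 180 kb. Exactly 25 kb, the least the rule allows, was the width of 1811 domains (29.1%). At least 50 kb was reached by 1205 domains, at least 75 kb by 297, at least 100 kb by 83 and at least 150 kb by 6. Shorter runs were more frequent, with 20562 lone windows at or above 3 and 17439 runs of 2 to 4 windows, of which 2994 had 4 windows. The 3 domains of 5 windows nearest the threshold had a lowest window of 3.00003, 3.00005 and 3.00012 in WT, and the 3 runs of 5 windows that failed by 1 window had 2.99997, 2.99995 and 2.99995 there. The domain mean was 4.99, 3.94 and 3.93 in the former and 5.14, 3.85 and 3.93 in the latter. The last 2 of these runs overlap on chromosome 16 and failed at the same window, so they are 1 case.

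Domains covered an unequal share of the chromosomes. The share of windows inside domains was 17.0% on chromosome 19, 12.3% on chromosome 11 and 11.5% on chromosome 18, and was lowest on chromosomes 14 (5.83%), 17 (6.87%) and 7 (7.23%). Every autosome held at least 178 domains.

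The domains were rich in CpG and in promoters. CpG content was 1.04 per 100 bp at the median of the domains. By window the median was 0.94 in domains against 0.72 in all autosomal windows, and by 25 kb it was 1.00 in domains against 0.732 in blocks outside. Repeats masked in the reference made up 28.5% of the domain windows and 34.0% of the other autosomal windows. A protein-coding transcription start site (TSS) lay in 2746 domains (44.1%), 1098 domains (17.6%) overlapped gene bodies without a TSS, and 2382 domains (38.3%) overlapped no protein-coding gene. Among domains of 25 kb, 35.6% held a protein-coding TSS, compared with 14.8% of the 86436 blocks of 25 kb outside domains. Gene body alone was found in 21.1% of those domains and 36.0% of those blocks, and no protein-coding gene in 43.2% and 49.2%. Height in WT was greater with more CpG across domains (Spearman correlation 0.417, n = 6226), and related less to width (correlation 0.161). Domains share libraries and neighbours, so these are descriptions.

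The edges of the domains were steep. In the last 5 kb outside an edge the mean was 2.03, 1.95 and 2.19 normalized RPKM in WT replicates 1, 2 and 4, and in the first 5 kb inside it was 4.35, 4.23 and 4.56. The cKO libraries had the same shape at the same place, with 2.10, 2.31 and 2.13 outside and 4.20, 4.06 and 4.09 inside in replicates 1, 3 and 4. The step in WT is partly set by the rule, which requires at least 3 in each window inside and less than 3 in the next. The cKO libraries took no part in that rule. In domains chosen on all 6 libraries alike, the edge windows were set against the inner windows at -0.405 in cKO and -0.404 in WT, which differed by -0.00096 (exact permutation test, p = 1).

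**Figure D1:**
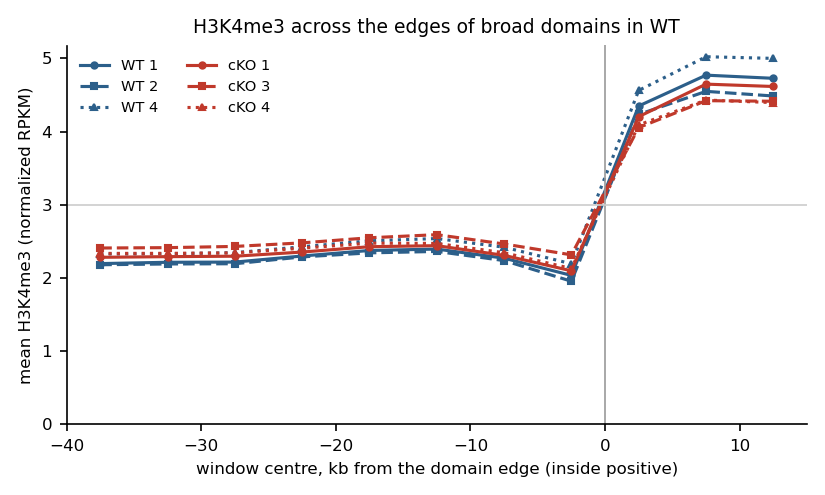
Mean H3K4me3 (y axis, normalized RPKM) by distance of the window centre from the edge of a broad domain (x axis, kb, inside positive), 1 line per library. Outside the edge every library lies near 2, and inside it every library lies above 4, with WT replicate 4 highest and cKO replicates 3 and 4 lowest.

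Over the domains, H3K4me3 was slightly lower in cKO. The mean over all domain windows was 4.66, 4.45 and 4.92 normalized RPKM in WT replicates 1, 2 and 4 (4.68 ± 0.235, SD, n = 3) and 4.53, 4.37 and 4.36 in cKO replicates 1, 3 and 4 (4.42 ± 0.0982, SD, n = 3). cKO replicate 1 lay above WT replicate 2, so the genotypes overlapped. The difference of -0.25 is about as large as the spread between WT libraries. By domain, the difference had a median of -0.28 with quartiles of -0.64 and 0.085, and it ran from -2.58 to 2.43. The cKO mean was below the WT mean in 4376 domains (70.3%) and above it in 1850.

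All 3 cKO libraries lay below all 3 WT libraries in 1478 domains (23.7%), against a background of 12.7% over all 97896 segments of the autosomes, which were these domains and all other sequence cut into 5 windows. All 3 lay above in 443 domains (7.12%), against a background of 17.1%. Of the domain windows, 7505 (15.8%) had all cKO libraries lower and 3035 (6.37%) had them higher, against 9.95% and 9.88% of all windows. A decrease of at least 1 normalized RPKM was seen in 610 domains and an increase of that size in 163. Decreases of at least 2 numbered 23, and increases of at least 2 numbered 3. Choosing regions for a high WT value favours a lower value in any library that did not choose, which the following comparisons measure.

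A pair of WT libraries was then used to choose domains, and these were read in the WT library that took no part and in cKO. Domains chosen on WT replicates 2 and 4 (n = 6295) had a mean of 4.68 in those libraries, 4.61 in WT replicate 1 and 4.40 in cKO. Those chosen on WT replicates 1 and 4 (n = 6692) had 4.73 in those libraries, 4.33 in WT replicate 2 and 4.34 in cKO. Those chosen on WT replicates 1 and 2 (n = 5607) had 4.67 in those libraries, 4.98 in WT replicate 4 and 4.52 in cKO. The cKO mean minus the WT library that took no part was -0.21, 0.00903 and -0.46 for these choices. WT replicate 2 lay as low as cKO and WT replicate 4 above the libraries that chose.

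The spread by domain was larger among the cKO libraries than among the WT libraries. The difference from the choosing libraries had an SD over domains of 0.351, 0.409 and 0.351 in WT replicates 1, 2 and 4 when each was left out of the choice, and of 0.613, 0.616 and 0.592 in the cKO mean for the same domains. A decrease of at least 1 was found in 0.747%, 5.99% and 0.0713% of domains in the WT library that took no part and in 11.5%, 14.7% and 7.51% in the cKO mean. The cKO value is a mean of 3 libraries and the WT value that of 1 library, which holds more counting error. In the mirror comparison, domains chosen on pairs of cKO libraries had an SD of 0.788, 0.633 and 0.718 in the WT mean and a decrease there of at least 1 in 20.8%, 11.97% and 17.2% of domains, in the order of the cKO library left out (replicates 1, 3 and 4). A cKO library left out of a choice on the other 2 cKO libraries also spread widely, with an SD of 0.571, 0.645 and 0.480 in replicates 1, 3 and 4 and a decrease of at least 1 in 6.37%, 6.67% and 4.51% of domains. The spread between genotypes thus stands beside a wider spread within cKO, and the part of each was not tested. A mean of at least 3 was kept by 99.5%, 97.7% and 99.98% of domains in the WT library that took no part, and by 94.8%, 92.9% and 96.6% in cKO.

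**Figure D2:**
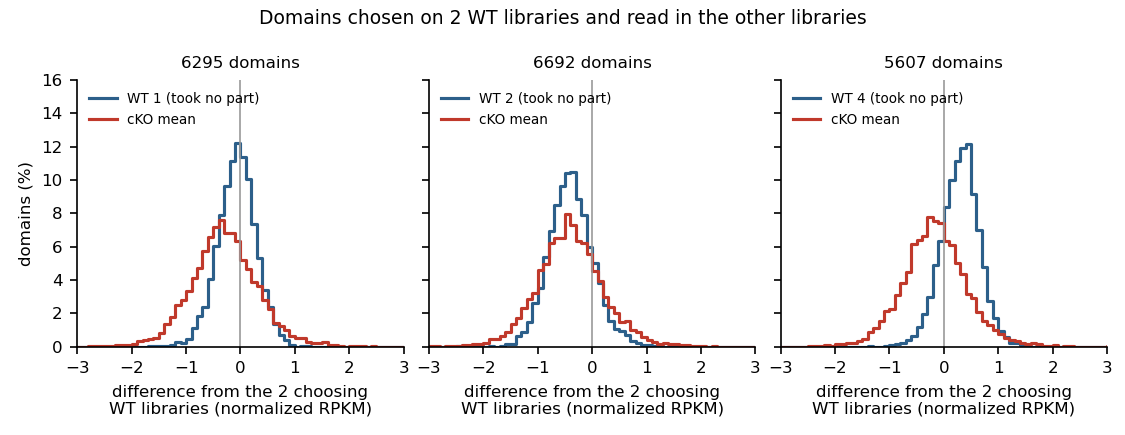
Share of domains (y axis, %) by the difference of the domain mean from the 2 WT libraries that chose the domains (x axis, normalized RPKM), for the WT library that took no part (blue) and the mean of the 3 cKO libraries (red), in 3 panels. The red curves are broader than the blue ones in each panel, and the blue curve is shifted to the left for WT replicate 2 and to the right for WT replicate 4.

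Choosing with the cKO libraries turned the difference around. The same rule on the cKO mean found 6103 domains with 47654 windows, in which the cKO libraries had 4.71, 4.80 and 4.65 normalized RPKM and the WT libraries 4.38, 4.21 and 4.62 (replicates in the order above), a difference of 0.315. Choosing on the mean of all 6 libraries, which weighs the genotypes equally, found 6073 domains with 46496 windows and covered 80.9% of the windows of the WT domains. There the cKO libraries had 4.71, 4.68 and 4.60 and the WT libraries 4.62, 4.41 and 4.86. The difference of 0.033 was not larger than the spread between libraries (exact permutation test, two-sided, p = 0.8; 3 libraries against 3 cannot give p under 0.1).

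**Figure D3:**
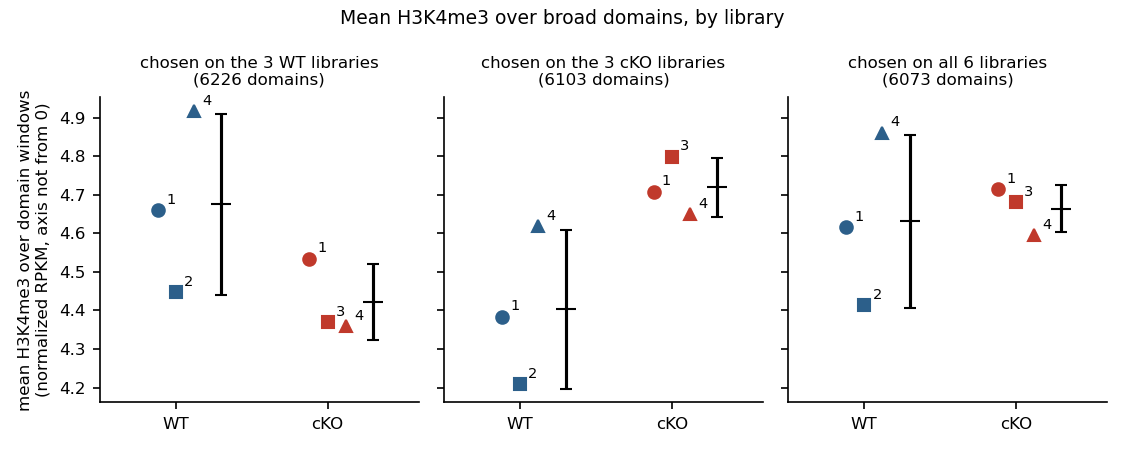
Mean H3K4me3 over domain windows (y axis, normalized RPKM, not starting at 0) in each library, for domains chosen on the WT, the cKO or all 6 libraries. Points are libraries with their replicate number, and the bars are the mean and SD of 3 libraries; the WT mean is higher in the first panel (4.68 and 4.42), lower in the second (4.40 and 4.72) and close to the cKO mean in the last (4.63 and 4.66).

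The number of domains did not separate the genotypes. The rule applied to each library alone found 5941, 6196 and 5605 domains in cKO replicates 1, 3 and 4 and 5945, 4759 and 7312 in WT replicates 1, 2 and 4. WT replicates 2 and 4 stood at either end, and all cKO libraries lay between them. The difference of -91.3 domains was small beside the SD of 1278 over WT libraries (exact permutation test, p = 0.9). Mean width was 37.9 ± 1.53 kb in cKO and 37.4 ± 2.197 kb in WT (SD, n = 3 each; exact permutation test, p = 0.9).

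Most WT domains had a mean of at least 3 in cKO as well. The cKO mean was at least 3 in 5923 domains (95.1%), under 3 in 303 and under 2 in 16. Every window was at or above 3 in cKO in 2819 domains (45.3%), and no window was in 28. Among the domain windows, 40681 (85.4%) were at or above 3 in cKO. No domain of the cKO rule overlapped 1876 WT domains (30.1%), while 4207 overlapped 1 such domain and 143 were split into several. In the other direction, 1735 of the cKO domains (28.4%) overlapped no WT domain and 127 joined 2 or more. The shared 31653 windows were 66.5% of the WT domain windows and 66.4% of the cKO domain windows. The domains of each library alone covered 66.1%, 57.5% and 56.0% of the WT domain windows in cKO replicates 1, 3 and 4, and 83.9%, 64.6% and 93.3% in WT replicates 1, 2 and 4, which had chosen them. WT replicate 2 covered less than cKO replicate 1, so these shares overlapped between genotypes.

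The counts of the window test are a description, since WT chose these windows, which favours losses. Of the 47633 domain windows, 823 passed (limma on the deposited values, Benjamini-Hochberg adjusted p under 0.05 over all 544879 windows), 197 as a gain and 626 as a loss in cKO. The background over all windows was 1.02% called, with 0.563% gains and 0.454% losses. Loss windows lay in 469 domains, gain windows in 173 and both in 5. At least 3 loss windows were found in 31 domains and at least 3 gain windows in 5, and the most in 1 domain were 10 and 3. These counts rest on the scale and the libraries: no domain window passed on log2(value + 1), where 4806 had an unadjusted p under 0.05, and none passed without WT replicate 1, WT replicate 2, WT replicate 4 or cKO replicate 4, while 207 passed without cKO replicate 3 and 2503 without cKO replicate 1. Of all windows, 0 passed on log2(value + 1) and 1 without WT replicate 1. Without WT replicate 2, WT replicate 4 or cKO replicate 4, 0 of all windows passed. Zeros in the domains are thus not a result about them. Without cKO replicates 3 and 1, 1761 and 17979 of all windows passed.

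The same fit at the level of the domain is likewise a description, because WT chose the domains and a lower value in cKO was favoured. There 602 of 6226 passed (limma over all segments, adjusted p under 0.05), 113 higher and 489 lower in cKO, against a background of 6.16% called, 3.47% higher and 2.7% lower. The count fell to 76, 224 and 93 without WT replicates 1, 2 and 4, and to 261 and 131 without cKO replicates 3 and 4, and rose to 1699 without cKO replicate 1. Of all 97896 segments, 6034 passed in the main fit and 536, 1796 and 816 without those WT replicates. Without those cKO replicates, 2509, 1001 and 26270 segments passed, so the counts in domains moved with those over all segments. On log2(value + 1) 69 domains and 2187 of all segments passed. On log2(RPM + 0.5) of the whole reads 0 of either passed.

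The domains chosen on all 6 libraries had another balance of calls. Of these 6073, 560 passed the same test, 372 higher (6.13%) and 188 lower (3.10%) in cKO, against a background of 5.97% called, 3.2% higher and 2.77% lower. With both genotype means at least 3, 509 of 6003 domains passed, 335 higher and 174 lower. This balance depended on the libraries and the fit. Without cKO replicate 1, 750 were higher and 735 lower, and with the replicate number as a block 406 were higher and 434 lower. Over all 97915 segments, 10735 were higher and 15336 lower without cKO replicate 1, and 3581 and 5216 with the block. The balance over all segments thus also moved towards lower, and the change is not particular to these domains. Of the 560 domains, 317 overlapped a domain of the WT rule, 131 of them higher and 186 lower. Leaving out 1 library gave 97 to 1485 domains, beside 517 to 26071 of all segments. On log2(RPM + 0.5) 0 domains and 0 of all segments passed.

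The largest changes among these called domains that lay wholly inside WT domains are given as values without their p, since lying inside a WT domain favours a decrease. A 25 kb domain in *Cpne4*, a copine gene for a calcium-dependent membrane-binding protein, at chr9:104875001-104900000, had 4.86, 4.96 and 5.13 normalized RPKM in WT and 2.09, 3.08 and 2.33 in cKO, whose mean was under 3. One inside *Akap2*, which encodes an anchor for protein kinase A, at chr4:57845001-57870000, had 5.02, 5.30 and 5.19 in WT and 2.85, 2.55 and 2.71 in cKO, again under 3 in the mean. A domain of 35 kb inside the tetraspanin gene *Tspan18* had 5.60, 4.91 and 5.66 in WT and 2.93, 3.25 and 2.92 in cKO. These 3 domains held no protein-coding start site. Of the 8 largest decreases, those with a start site were over *Rac1*, a small GTPase, with a mean of 6.14 in WT and 3.85 in cKO, and over *Mn1*, a transcriptional coregulator, with 6.13 and 4.00. *Arpc5*, for a subunit of the ARP2/3 actin nucleator, had an intragenic domain at 5.41 in WT and 3.34 in cKO.

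The largest increases among the called domains chosen on all 6 libraries that lay wholly inside WT domains were mostly CpG-rich. *Hlx*, a homeobox transcription factor gene, at chr1:184705001-184735000, had 4.59, 4.24 and 4.28 in WT and 6.48, 6.80 and 6.79 in cKO. *Nr2e1*, for an orphan nuclear receptor, shared a domain with *Ostm1* that had 4.60, 4.47 and 4.58 in WT and 6.02, 6.42 and 6.47 in cKO. Neighbouring domains on chromosome 17 covered *Vwa7* and *Sapcd1* (4.91 in WT, 6.75 in cKO) and *Clic1* and *Ddah2* (4.29 and 6.03). An intragenic domain in *Sox5*, a transcription factor gene, had 3.99 in WT and 5.75 in cKO. The CpG-richest of 4 groups of domains held 7 of the 8 largest increases and 2 of the 8 largest decreases.

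Across the domains chosen on all 6 libraries, the difference between genotypes followed CpG content. The domains were put into 4 groups by CpG content. In the CpG-poorest group (n = 1520, up to 0.858 CpG per 100 bp), the cKO libraries had 4.44, 3.99 and 4.009 normalized RPKM and the WT libraries 4.42, 4.20 and 4.75, a difference of -0.31 (exact permutation test, p = 0.3). In the CpG-richest group (n = 1518, from 1.41 per 100 bp), the cKO libraries had 4.87, 5.11 and 4.98 and the WT libraries 4.64, 4.48 and 4.75. There the cKO libraries all exceeded the WT libraries, by 0.363 in the mean (exact permutation test, p = 0.1, the smallest this design can give). The groups between them had differences of -0.076 and 0.087.

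The rise from the CpG-poorest to the CpG-richest group was 0.438, 1.12 and 0.968 in cKO replicates 1, 3 and 4 and 0.217, 0.283 and 0.00557 in WT replicates 1, 2 and 4. It was larger in each cKO library than in each WT library, by 0.674 in the mean (exact permutation test, p = 0.1, the smallest possible). cKO replicate 1, the cKO library with the highest value at 0 reads, had the smallest rise of the cKO libraries. The part of this background in the contrast was not tested. On log2(RPM + 0.5) of the whole reads the rise was 0.132, 0.255 and 0.237 in cKO and 0.0357, 0.0564 and -0.0223 in WT. In the CpG-richest group 219 domains (14.4%) passed as higher and 41 (2.70%) as lower in cKO, and in the CpG-poorest group 15 (0.987%) and 49 (3.22%), against a background of 3.2% higher and 2.77% lower over all segments. The share passing as lower was thus near the background in both groups. None of these domains passed on log2(RPM + 0.5), where 0 of all 97915 segments passed.

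**Figure D4:**
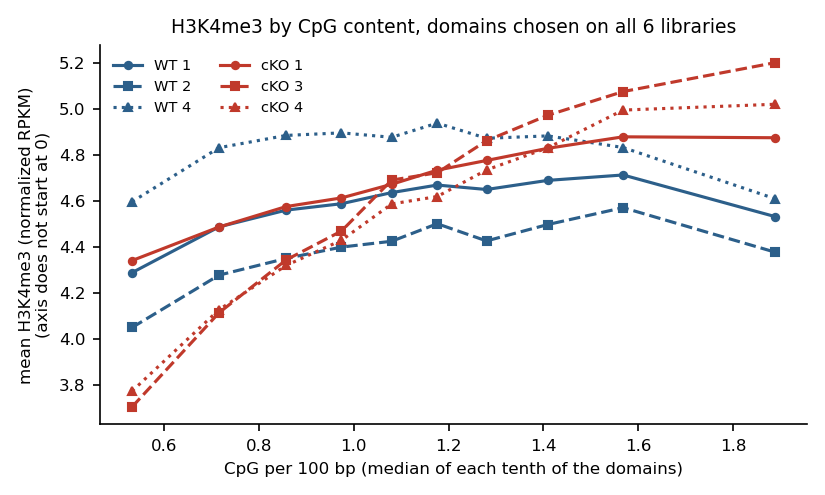
Mean H3K4me3 (y axis, normalized RPKM, not starting at 0) against CpG content (x axis, CpG per 100 bp) for 10 groups, ordered by CpG content, of the 6073 domains chosen on all 6 libraries, 1 line per library. cKO replicates 3 and 4 rise from 3.70 and 3.77 in the poorest group to 5.20 and 5.02 in the richest, while the WT lines are flatter and end at 4.38 to 4.61.

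In the WT domains these values are a description, since WT chose them and WT height also varied with CpG content. The mean difference was -0.59, -0.36, -0.17 and 0.051 from the CpG-poorest to the CpG-richest of 4 groups, and the difference and CpG content had a Spearman correlation of 0.417 over 6226 domains. In the poorest group, 33.0% of domains had all cKO libraries lower than the WT libraries and 1.03% had them all higher. In the richest group these shares were 16.4% and 18.4%. Width had little relation to the difference (Spearman correlation 0.066), with -0.30 in domains of 25 kb and -0.19 in those of at least 75 kb.

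Position relative to genes went with CpG content. WT domains without a protein-coding gene had the lowest CpG content (0.809 per 100 bp at the median) and the largest mean difference (-0.44), those in gene bodies had 0.948 per 100 bp and -0.21, and those with a TSS had 1.29 per 100 bp and -0.15. In the domains chosen on all 6 libraries, gene body domains were lower than domains without a gene in the WT libraries (differences of -0.061, -0.095 and -0.11 in replicates 1, 2 and 4) and higher in the cKO libraries (0.154, 0.255 and 0.178), a difference of 0.285 (exact permutation test, p = 0.1, the smallest possible). Within domains that held a TSS, the TSS windows exceeded the other windows by 0.622, 0.510 and 0.2499 in WT and by 0.780, 0.454 and 0.605 in cKO. That contrast overlapped between genotypes (exact permutation test, p = 0.5).

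The longest domains had overlapping levels in both genotypes. The domain at chr1:39725001-39905000 was 180 kb long, ended over the promoter of *Map4k4*, a kinase of the STE20 family, and had 5.02, 4.38 and 5.24 normalized RPKM in WT and 4.94, 4.71 and 4.71 in cKO. It overlapped between genotypes, and 33 of its 36 windows were at or above 3 in cKO. A 160 kb domain at chr9:47345001-47505000 covered no protein-coding gene and lay 25173 bp from the nearest protein-coding TSS, that of the adhesion gene *Cadm1*, with 5.12 in WT and 4.99 in cKO. A 160 kb domain over *Tmem156*, *Klhl5* and *Wdr19* had 4.55 and 4.68, one of 155 kb over the glycine transporter gene *Slc6a5* and *Nell1* had 5.02 and 4.61, and one of 155 kb over *Ralgapa2*, for a GTPase-activating protein of Ral, had 4.82 and 4.64. All 5 overlapped between genotypes.

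Of the 5 domains with the highest WT mean, which were chosen for that value, 4 had a lower mean in cKO. At chr19:5385001-5410000, over *Sart1*, a splicing factor gene, WT had 7.27, 8.06 and 6.33 and cKO 6.23, 5.93 and 6.41. The domain over *Lrig1*, for a negative regulator of receptor tyrosine kinases, had 6.83, 6.97 and 6.54 in WT and 5.53, 5.76 and 5.53 in cKO, with no overlap. The domain over *Abt1* and the milk protein gene *Btn1a1* overlapped, with means of 6.76 and 6.82. The remaining 2 of the highest 5 lay away from protein-coding genes and had 6.74 and 6.73 in WT and 6.12 and 5.49 in cKO.

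The largest decreases with no overlap were in domains with 0.573 to 1.00 CpG per 100 bp, all below the domain median of 1.04. A second domain in *Cpne4*, at chr9:104775001-104805000 with 0.75 CpG per 100 bp, had 4.56, 4.73 and 5.05 in WT and 1.96, 2.07 and 2.58 in cKO. Only 1 of its 6 windows stayed at or above 3 in cKO. At chr6:66095001-66125000, with no gene, WT had 3.85, 3.499 and 4.55 and cKO 1.52, 1.03 and 1.63. The domain over the vomeronasal receptor gene *Vmn1r27* had 3.295, 3.35 and 4.15 in WT and 1.28, 1.05 and 0.827 in cKO, the lowest cKO mean of all domains. An intragenic domain in *Camk2d*, for a calcium/calmodulin-dependent kinase subunit, had a mean of 4.21 in WT and 1.73 in cKO. In these last 3 domains no window was at or above 3 in cKO.

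The largest increases were in domains with 0.976 to 3.71 CpG per 100 bp. At chr8:35680001-35725000, 40790 bp from the nearest protein-coding TSS, WT had 4.52, 4.34 and 5.32 and cKO 7.25, 7.20 and 7.005. Its CpG content of 0.976 per 100 bp is below the median of the domains. The domain over *Hoxa3* to *Hoxa9*, with the highest CpG content of all domains, had 4.19, 3.86 and 4.13 in WT and 6.57, 5.45 and 6.29 in cKO. The F-box genes *Fbxo6*, *Fbxo44* and *Fbxo2*, for ubiquitin ligase subunits, had 4.20 and 6.14.

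**Figure D5:**
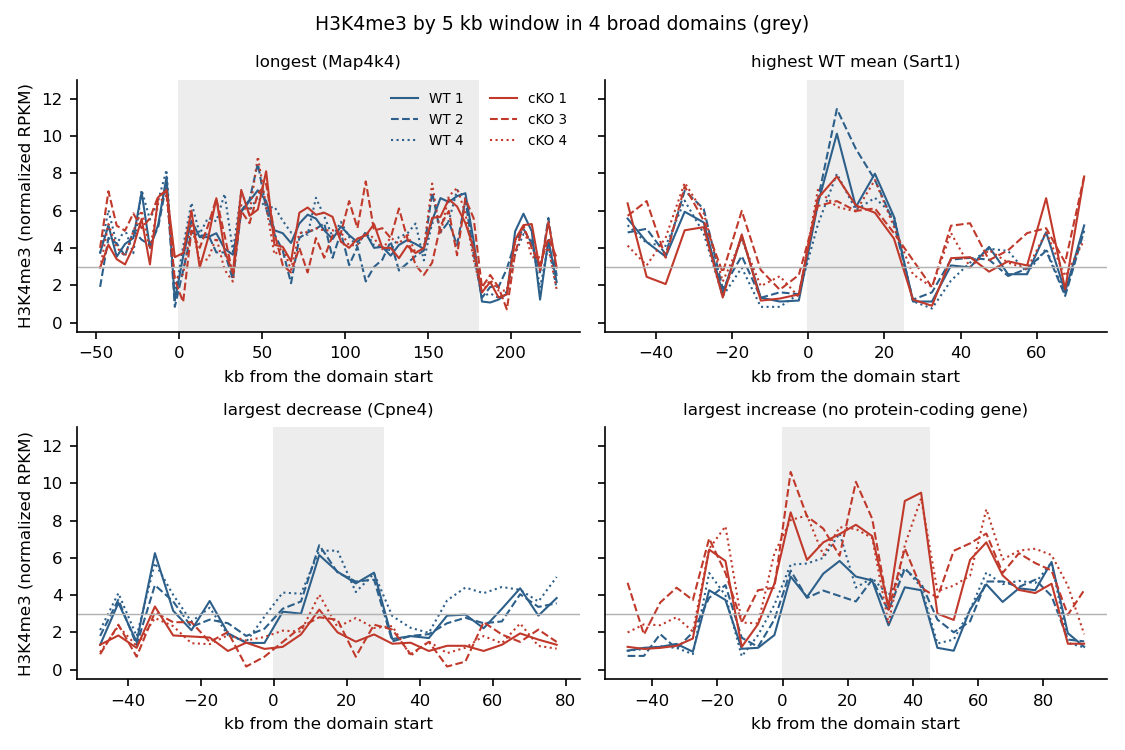
H3K4me3 (y axis, normalized RPKM) in each 5 kb window against distance from the domain start (x axis, kb), with the domain in grey and the threshold of 3 as a line, for 4 domains. The lines of both genotypes run together over the longest domain, the cKO lines lie below the WT lines across the *Cpne4* domain, and they lie above the WT lines in most windows of the domain with the largest increase.

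Genes differed in how often their start site lay in a domain. Of 20782 protein-coding genes, 4058 (19.5%) did. Replication-dependent histone genes, which encode core and linker histones and sit in clusters, did so in 48 of 67 cases (71.6%). Their near-identical copies lose reads that map to several places, so these values are less certain than others. Polycomb subunits, which repress developmental genes, were in domains in 9 of 20 cases, Hox genes in 15 of 39, other developmental factors (Pax, Sox, Gata and Tbx) in 16 of 44, and Wnt ligands and Frizzled receptors in 6 of 29. Olfactory receptor genes, which form large arrays, were at the other end with 34 of 1087 (3.13%). Cytosolic ribosomal protein genes were in domains in 18 of 75 cases and Zfp genes in 38 of 358.

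The oocyte lists are given beside the 19.5% of all protein-coding genes with a start site in a domain. None of 11 oocyte transcription factor genes and none of 8 genes for zona pellucida and secreted oocyte proteins had a start site in a domain. The start site window was nevertheless at or above 3 in WT in 9 of those 11 and in all 8, compared with 65.7% of protein-coding genes. Maternal-effect genes were in domains in 3 of 15 cases (*Cnot6l*, *Ooep* and *Zar1*), DNA methylation genes in 1 of 9 (*Dppa3*), imprinted genes in 3 of 20 and clustered protocadherins in 0 of 57. Granulosa cell markers were in domains in 3 of 9 cases (*Kitl*, *Amh* and *Inhba*), markers of theca, stroma and blood in 1 of 7 (*Col1a1*) and general housekeeping genes in 2 of 13. H3K4me3 at a marker of another cell type does not show that such cells were present, and the part of somatic cells in the domains was not tested.

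The enzymes of the mark itself were in part in domains. Of 14 genes for H3K4 methyltransferases and their subunits, 4 had a start site in a domain, and *Setd1b* was not among them. *Kmt2a*, for the enzyme MLL1, had 3.78, 3.62 and 4.11 in WT and 5.21, 5.21 and 4.98 in cKO, with no overlap. *Ash2l*, for a core COMPASS subunit, had 3.90, 4.45 and 4.57 in WT and 3.72, 3.70 and 3.38 in cKO, also with no overlap and in the other direction. The domains of *Wdr82*, for the subunit that binds RNA polymerase II, and of *Dpy30*, for another core subunit, overlapped, with 5.65 and 5.53 and with 4.67 and 4.32. Of the demethylase genes, *Kdm5b* had 3.98, 4.03 and 4.08 in WT and 4.50, 4.53 and 3.96 in cKO, which overlapped.

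Domains grouped by their genes are given beside a median of -0.28 and 1478 lower and 443 higher domains among all 6226. The 5 domains with Hox genes had a median difference of 0.955, with 3 higher, none lower and 2 overlapping. The 5 with Wnt or Frizzled genes had a median of 0.806, with 3 higher and none lower, and held *Wnt3* (5.06 in WT, 5.87 in cKO) and *Wnt3a* with *Wnt9a* (4.79 and 5.91), which encode secreted signals. The 15 with Pax, Sox, Gata or Tbx genes had a median of 0.281, with 3 higher and 1 lower. These groups had a median CpG content of 2.17, 1.73 and 1.57 per 100 bp, above that of all domains. *Col1a1*, a collagen gene of stromal cells and the only domain of the theca, stroma and blood list, had 3.57, 3.66 and 3.81 in WT and 3.93, 5.24 and 4.69 in cKO, with no overlap. The 3 domains with granulosa markers had a median difference of 0.152 and all overlapped. Over the whole lists, whether in domains or not, the start site window had a median of 4.14 in WT and 5.24 in cKO for the 9 granulosa genes and of 1.76 and 1.88 for the 7 genes of theca, stroma and blood, beside 3.85 and 4.19 for all protein-coding genes. Hox genes rose as well, with medians of 3.64 in WT and 5.41 in cKO. Genes for zona pellucida and secreted oocyte proteins fell from 6.62 to 4.86, and maternal-effect genes from 6.14 to 4.78. The part of other cells in the differences was not tested.

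The 23 domains with olfactory receptor genes had a median difference of -0.83 and a CpG content of 0.704 per 100 bp, with 12 lower and none higher. The 9 with Polycomb genes had a median of -0.65 at 1.61 CpG per 100 bp, with 3 lower and none higher, among them *Pcgf5* (5.42, 5.30 and 5.80 in WT, 4.42, 4.39 and 4.95 in cKO) and *Pcgf6* (5.27, 5.53 and 5.28 in WT, 4.03, 4.16 and 4.64 in cKO), for subunits of PRC1. *Dppa3*, for the maternal factor that guards DNA methylation in the zygote, had 5.83, 5.53 and 5.20 in WT and 4.81, 4.93 and 4.55 in cKO, and *Cnot6l*, for a deadenylase of maternal mRNAs, had 5.79, 5.28 and 5.71 and 5.01, 4.75 and 4.46. Neither overlapped. The 3 domains with maternal-effect genes, *Cnot6l* among them, had a median of -0.60 with 1 lower and none higher. The 18 domains with ribosomal protein genes had a median of -0.30 with 5 lower and 2 higher, the 33 with Zfp genes -0.21 with 6 lower and 2 higher, and the 10 with histone genes -0.081 with 3 lower and none higher. The groups are small, share the choice on WT and were not tested.

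Input, which took no part in the choice, was read over the same windows. Over the domain windows the input libraries had 2.18 and 2.10 reads per window, scaled to library size, in cKO (replicates 1 and 4) and 2.17 and 2.01 in WT, a difference of 0.053 (exact permutation test, p = 0.667; 2 libraries against 2 cannot give p under 0.333). Over all autosomal windows they had 1.96 to 1.97, so the mean was higher in the domains in each input. The medians were 2.17, 2.10, 2.17 and 2.01 in the domains and 2.08, 2.02, 2.07 and 2.05 over all autosomal windows (cKO replicates 1 and 4, then WT replicates 1 and 4), so the median of WT input 4 was lower in the domains. Between the input genotypes, edgeR's quasi-likelihood test on whole reads called 4 of 504743 windows (a background of 0.000792%), and 0 of the 47633 domain windows, of which 2335 had an unadjusted p under 0.05. At that background, 0 calls are not a result about the domains.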

How the data were processed

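ULI-nChIP-seq for H3K4me3 gave 3 libraries of *Setd1b* cKO and 3 of WT GV oocytes, with 2 inputs per genotype. The authors trimmed 75 bp single-end reads with Trim Galore 0.4.2, mapped them to GRCm38 with Bowtie2 2.2.9 (per the submitters' notes), removed mappings of MAPQ under 20 and counted reads with SeqMonk in windows of 5 kb. What they deposited for H3K4me3 is a score: RPKM after enrichment normalization, not in log units. For input the deposited unit is a signal, the window's reads scaled to library size. The authors excluded windows with high input and 1 poorly enriched replicate per genotype. The study's methods also allow a Cre-carrying control genotype that the labels do not show.

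Whole reads were recovered from every value (100% within 0.05 reads of a whole number). They count mapped reads, with duplicates not told apart. Genes came from GENCODE M21, with 1 TSS per gene, CpG and repeat content from the RefSeq GRCm38 sequence. The last window ended at the chromosome end in all 21 chromosomes. The limma 3.58.1 fits (R 4.3.3, no trend, Benjamini-Hochberg adjustment) ran over every window, or over every segment, where a segment was a domain or 5 windows of other sequence. Inputs were tested with edgeR 4.0.16 (windows of at least 10 reads). Library means were tested with exact two-sided permutation tests in scipy 1.17.1. Files were handled in Python 3.11.15 with pandas 2.3.3 and numpy 2.4.6, and plots made with matplotlib 3.10.9. The scripts were tested on simulated data. Domains named were the 5 longest, highest, most decreased and most increased (the last without overlap), and up to 4 per gene list; 1 of the most increased is not reported here. The 8 largest called changes each way among domains chosen on all 6 libraries, the CpG contrast, the within-domain contrasts and the counts by gene list were added after values were seen. Members and lists were chosen with earlier results of these data known. Same-numbered cKO and WT libraries did not deviate together (r = 0.0598 and -0.0427 for numbers 1 and 4).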

Additional observations from a re-analysis of the deposited data

How the results depend on the processing

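Normalization, scale and single libraries decided how many windows and domains passed, and the libraries that chose the domains decided the sign of the mean difference. Instead of 823 domain windows, 1364 passed with an intensity trend, 0 on log2(value + 1), log2(value + 0.1) and log2(RPM + 0.5), 0 after quantile normalization, 0 at adjusted p under 0.01, 6849 with the replicate block, 470 with edgeR on whole reads (chosen after seeing the data, with 0 gains and 470 losses) and 0 to 2503 with 1 library left out. Over all 544879 windows, 5539 passed in the main fit, 19492 with the trend and 33433 with the block. With 1 library left out, 0 to 17979 of them passed. On these log2 scales and at adjusted p under 0.01, 0 of all windows passed, and 1 did after quantile normalization. Those zeros are thus not a result about the domains. With edgeR, 11514 of 503726 windows passed, 5369 as gains and 6145 as losses. At an unadjusted p under 0.05, 4806, 3456, 6289 and 9048 domain windows stood behind the zeros of the log2(value + 1), log2(value + 0.1), log2(RPM + 0.5) and quantile fits. Instead of 602 domains, 69 passed on log2(value + 1), 0 on log2(RPM + 0.5), 1055 with the replicate block and 76 to 1699 with 1 library left out. In the same fits 2187, 0, 8880 and 536 to 26270 of all 97896 segments passed. The mean difference of -0.25 was 0.00903 against WT replicate 2 when WT replicates 1 and 4 chose and 0.315 when cKO chose, and -0.37 to -0.13 with 1 library left out. The difference in number of domains of -91.3 was 69.7 and 75 at thresholds of 2 and 4, 44.3 and 38 with runs of at least 3 and 10 windows, -474.7 with libraries thinned to the shallowest, -855.5 with the replicate block, and -714.5 to 562 with 1 library left out. Over domains chosen on all 6 libraries the difference of 0.033 was -0.084 with the replicate block and -0.075 to 0.148 with 1 library left out. Every window was at or above 3 in cKO in 2819 domains instead of a mean of at least 3 in 5923, and the latter was 5778 to 5976 with 1 cKO library left out. Input differed by -0.023 to 0.129 with 1 input library left out. The CpG contrast of 0.674 normalized RPKM was 0.64 to 0.69 after quantile normalization, thinning or with the WT domains as members, 0.185 and 0.193 in log2 units on log2(RPM + 0.5) and log2(value + 1), which are another unit, 0.534 to 0.876 with 1 library left out and 0.592 with the replicate block, always in 1 direction. The causes of these changes were not tested. Replicate numbers 1 and 4 are the only ones shared, so they are not taken to pair the libraries. At 3 libraries per genotype no permutation p can fall under 0.1, and 1 read moves a window by 0.030 to 0.132 normalized RPKM.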
